A study of Sus scrofa with 9 samples.

Results

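The genes described here are 44 genes of DNA replication and S phase, the stage of the cell cycle in which the genome is copied. They were chosen by gene symbol from a list of licensing factors, replication fork proteins, enzymes of nucleotide supply and regulators of the step from G1 into S phase. All 44 symbols were among the 27339 genes of the pig count table, and all 44 passed the filter on low counts that left 15956 genes for testing.

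The cells were primary Göttingen pig myoblasts at passages 7 to 9, and each group carried a transgene that doxycycline switches on. In 3 libraries the transgene was human DUX4, in 3 it was pig DUXC and in 3 it was GFP, a fluorescent protein that served as the control. DUX4 is a transcription factor of the early embryo whose misexpression in muscle is linked to facioscapulohumeral muscular dystrophy, and DUXC is a related factor of the pig. All groups, the GFP control included, received 1 µg/mL doxycycline for 16 h before harvest. The promoter behind the transgenes and whether the cells of a group came from 1 clone or from several infections were not given in the sources used here. Labels number the libraries of a group without saying whether they are separate cultures, and the p-values speak only of the variation among these 9 libraries, part or all of which may be technical.

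Replication is prepared in G1, when the origin recognition complex marks origins and CDC6 and CDT1 load the ring-shaped MCM helicase onto them. Cyclin E kinase and the CDC7-DBF4 kinase then fire the origins, CDC45 and the GINS complex join the helicase, and primase and the polymerases copy both strands behind it while ribonucleotide reductase and its partners supply the building blocks. Many of these genes are transcribed under E2F factors as cells enter S phase, and in muscle precursors they are switched off when the cells stop dividing and differentiate. In bulk RNA, more cells in S phase and more of these transcripts per cell cannot be told apart.

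Total counts were 36580573 to 44420895 per library. Most of the defining myoblast markers were scarce: PAX7 was at 0.402 ± 0.0974 CPM (counts scaled to one normalised library depth; mean ± SD, n = 3) and MYF5 at 0.705 ± 0.256 CPM with GFP, and MYOD1 had 0, 0 and 1 counts, while DES was at 7.15 ± 0.326 and ITGA7 at 5.77 ± 0.438 CPM. The summed level of the 8 fibroblast markers was 49883 to 53006 CPM with GFP, 29006 to 32736 with DUX4 and 25633 to 25653 with DUXC. Most of this sum came from COL1A1, COL1A2 and COL3A1. All 8 were lower with DUX4, where 31.9% of all genes tested were lower. With DUXC 6 were lower, where 42.3% of all genes tested were, while PDGFRA rose from 373 to 926 CPM and FAP from 22.6 to 27.7 CPM. The 8 smooth muscle and pericyte markers summed to 2221 to 2361, 712 to 765 and 541 to 560 CPM, and the 8 myoblast markers to 13.8 to 14.9, 18.5 to 21.4 and 10.5 to 11.11 CPM. Within both lists genes moved both ways. CSPG4 rose with DUX4 (172 to 300 CPM), MCAM with both transgenes and RGS5 with DUXC, while 5 of that list fell with DUX4 and 6 with DUXC. Of the 5 myoblast markers tested, ITGA7 (to 14.8 CPM) and MYF5 rose with DUX4 and DES fell to 2.10 CPM. With DUXC, PAX7, MYF5 and CHRNA1 rose while DES and ITGA7 fell. Endothelial, immune and adipocyte lists summed to at most 88.8, 12.1 and 11.8 CPM in any library, and these sums were uneven. ERG at 53.3 ± 1.54 CPM, PECAM1 at 6.16 ± 0.525, ITGAM at 6.36 ± 0.477 and CSF1R at 2.67 ± 0.487 CPM were detected with GFP, while PTPRC, CD3E, CDH5, ADIPOQ and PLIN1 had 0 counts there. FABP4 had 0 counts with GFP and was at 8.84 ± 0.403 CPM with DUXC. The marker levels moved with the transgenes, and their part in the results on the replication genes was not tested.

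With DUX4, the whole set of replication genes was higher than with GFP. The 44 genes together took 0.0692% ± 0.00102 of all counts with GFP, 0.176% ± 0.00553 with DUX4 and 0.110% ± 0.00102 with DUXC (SD, n = 3). Their summed level was 718, 699 and 731 CPM in the 3 GFP libraries, 1800.2, 1842 and 1737 CPM in the DUX4 libraries and 1029, 1058 and 1048 CPM in the DUXC libraries. The 3 groups did not overlap, with DUX4 highest and DUXC between the other groups.

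All 44 genes passed the test as higher with DUX4, where 32.9% of all genes tested did so and 31.9% were lower (edgeR's quasi-likelihood test, two-sided, with Benjamini-Hochberg adjustment over all genes tested, called at an adjusted p below 0.05). Of the 44, 37 rose at least 2-fold, against 10.5% of all genes tested. In all 44 every DUX4 library lay above every GFP library, and 67.0% of all genes tested had groups that did not overlap in one direction or the other. The median log2 fold change was 1.65, from 0.14 for TYMS to 3.30 for CDC6, and the median over all genes tested was 0.00. All 44 calls held under each of the 18 alternative settings tried.

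With DUXC, the set split. Against GFP, 32 of the 44 genes rose, where 40.2% of all genes tested were higher, and 6 fell, where 42.3% were lower. The 6 that fell were GINS2, RFC2, RRM2, TYMS, SLBP and CDC25A. MCM5, MCM6, CDC7, RRM1, CHAF1B and E2F2 did not pass the test. At least 2-fold higher were 10 genes, against 21.3% of all genes tested, and groups did not overlap for 37, against 83.5% of all genes tested. Both of these counts are near the shares over all genes and are no result about the set. The median log2 fold change was 0.52, from -0.81 for TYMS to 5.43 for CDC6, and the median over all genes tested was -0.03. Both contrasts use the same GFP libraries, so their values are given side by side and the transgenes were compared directly.

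In the direct comparison 37 of the 44 genes were higher with DUX4 than with DUXC, where 40.8% of all genes tested were higher, and 21 of them were at least 2-fold higher, against 9.83%. The other 7 were lower with DUX4, where 41.6% of all genes tested were lower: ORC1, CDC6, MCM3, DBF4, POLA1, CLSPN and CCNE1. Groups did not overlap for 43 genes, all but MCM3, against 83.0% of all genes tested. The median log2 difference was 0.96, and -0.01 over all genes tested.

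**Figure D1:**
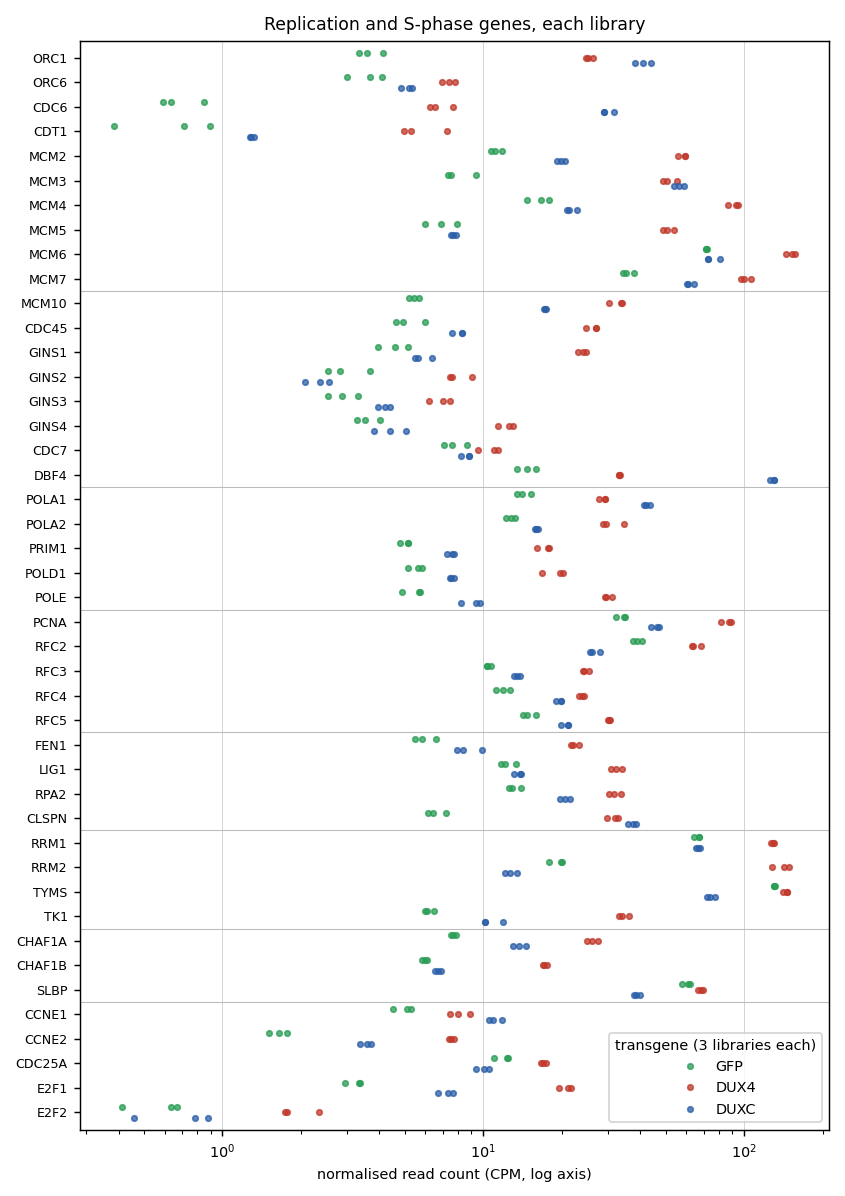
Normalised read count (CPM, log axis) of each of the 44 genes in each of the 9 libraries, in order of role, with thin lines between the roles. The red DUX4 points lie to the right of the green GFP points in every row, while the blue DUXC points lie furthest right for CDC6, DBF4 and ORC1 and furthest left for RRM2, TYMS and SLBP.

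**Figure D2:**
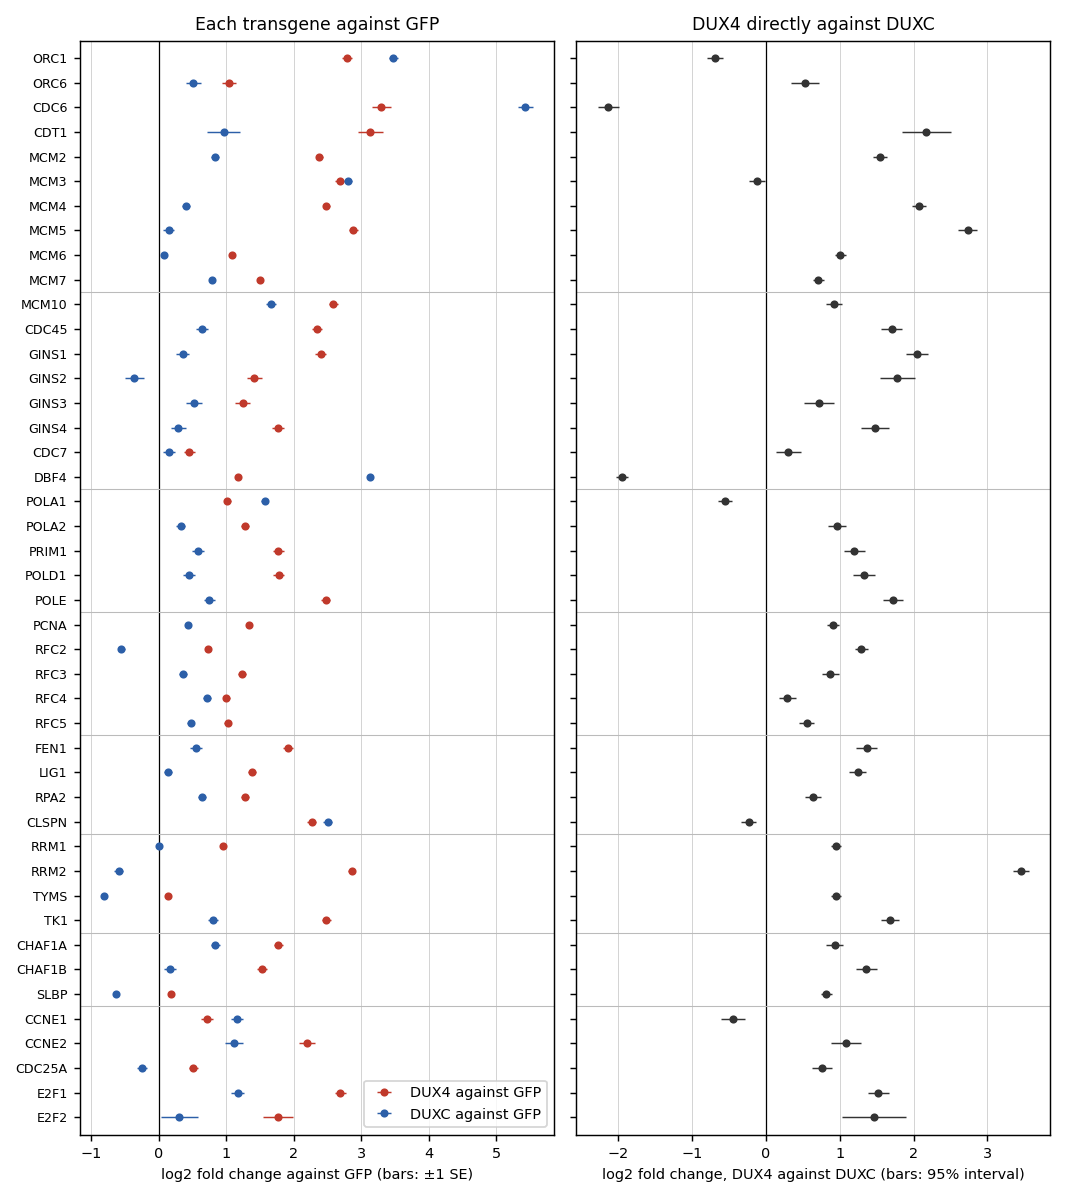
Log2 fold changes of the 44 genes from the fit over all genes tested; on the left each transgene against GFP (bars: 1 standard error), on the right DUX4 directly against DUXC (bars: 95% interval). All red points lie right of 0, the blue points lie on both sides of it, and 7 genes lie left of 0 in the direct comparison.

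Among the 10 licensing genes, all rose with DUX4, where 32.9% of all genes tested were higher. With DUXC 8 rose, where 40.2% were higher. The largest fold changes of the whole set against GFP were here. CDC6, the ATPase that helps to load the helicase, was at 0.636, 0.590 and 0.847 CPM with GFP, at 7.67, 6.51 and 6.23 CPM with DUX4 and at 28.9, 31.7 and 29.1 CPM with DUXC. The 3 groups were far apart, with GFP lowest and DUXC highest. The rise was 9.82-fold with DUX4 (log2 3.30, SE 0.14, adjusted p = 8.04e-26) and 43.2-fold with DUXC (log2 5.43, SE 0.109, adjusted p = 1.02e-39), and the level with DUX4 was 0.227 of that with DUXC (log2 -2.14, SE 0.0711, adjusted p = 1.17e-30). The gene lies on chromosome 12 from 22101281 to 22118441 in the Sscrofa11.1 assembly, where RefSeq places no other gene over it. Counts behind the GFP value were low, 23 in the library with the fewest.

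CDT1, the partner of CDC6 in loading, showed the opposite order of the transgenes. It had 0.710, 0.899 and 0.385 CPM with GFP, 4.97, 7.25 and 5.28 CPM with DUX4 and 1.29, 1.32 and 1.27 CPM with DUXC. All DUX4 libraries exceeded all DUXC libraries, which exceeded all GFP libraries. The rise was 8.77-fold with DUX4 (log2 3.13, SE 0.185, adjusted p = 4.83e-17) and 1.94-fold with DUXC (log2 0.96, SE 0.247, adjusted p = 0.000651), and the transgenes differed directly by log2 2.17 (adjusted p = 1.32e-14). Here too counts were few, with 15 in the lowest GFP library.

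The origin recognition complex has 6 subunits, of which ORC1 is the one best known for being made and destroyed with the cell cycle. ORC1 had 3.60, 3.34 and 4.13 CPM with GFP, 26.4, 25.2 and 24.8 CPM with DUX4 and 38.2, 43.9 and 41.1 CPM with DUXC. It rose by log2 2.79 with DUX4 (SE 0.075) and by log2 3.48 with DUXC (SE 0.0712), with no overlap between groups, and the direct difference was log2 -0.69 (adjusted p = 1.00e-16). ORC6, the smallest subunit, moved less, from 3.59 ± 0.545 CPM with GFP to 7.38 ± 0.423 with DUX4 (log2 1.04) and 5.12 ± 0.243 with DUXC (log2 0.51, adjusted p = 3.80e-05).

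The MCM2 to MCM7 genes encode the 6 subunits of the helicase ring, which is built with 1 copy of each. With DUX4 all 6 rose, by log2 1.08 for MCM6 to 2.88 for MCM5, with a median of 2.43, where 32.9% of all genes tested were higher. With DUXC 4 rose, where 40.2% of all genes tested were higher, and the median was 0.60, but MCM3 stood far above the others. MCM3 had 7.34, 7.52 and 9.34 CPM with GFP, 50.4, 55.4 and 49.1 CPM with DUX4 and 53.8, 58.7 and 56.2 CPM with DUXC. Both transgene groups lay well above GFP (log2 2.68 with DUX4 and 2.80 with DUXC) and overlapped each other. The direct difference of log2 -0.12 (SE 0.0503, 95% interval -0.23 to -0.02, adjusted p = 0.0260) was lost without a filter on low counts, at an adjusted p of 0.0851, and without DUX4 replicate 1 or 3 or DUXC replicate 2 or 3, at 0.0561 to 0.134. Over all alternatives its adjusted p ranged from 0.000104 to 0.134.

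MCM5 showed the widest gap between the transgenes in the ring. It had 6.88, 5.98 and 7.95 CPM with GFP, 50.5, 54.0 and 48.8 CPM with DUX4 and 7.85, 7.66 and 7.52 CPM with DUXC. The DUXC libraries lay within the range of the GFP libraries. With DUX4 the rise was 7.37-fold (SE of the log2 value 0.0646, adjusted p = 8.24e-36), with DUXC the log2 difference was 0.15 (95% interval -0.02 to 0.31, adjusted p = 0.101), and the direct difference was log2 2.74 (adjusted p = 1.05e-35). The DUXC value passed the test under DESeq2's size factors, library size alone, the filter of 1 CPM, DESeq2, a fit of only both groups compared, and without GFP replicate 3, at adjusted p-values of 0.00274 to 0.0360; the range over all alternatives was 0.00274 to 0.584.

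In the direct difference between the transgenes, the other subunits lay between MCM3 and MCM5. MCM4 had 16.4 ± 1.57 CPM with GFP, 91.5 ± 4.47 CPM with DUX4 and 21.8 ± 1.02 CPM with DUXC, so that it rose by log2 2.48 with DUX4 and by 0.41 with DUXC. MCM2 went from 11.2 ± 0.555 to 58.1 ± 2.18 CPM with DUX4 (log2 2.38) and to 19.9 ± 0.73 CPM with DUXC (log2 0.83). MCM7 went from 35.8 ± 1.88 to 101 ± 4.33 CPM (log2 1.50) and to 61.8 ± 2.11 CPM (log2 0.79). Each of these genes was higher with DUX4 than with DUXC in the direct test, by log2 2.07, 1.55 and 0.71. MCM6 had 71.6 ± 0.383 CPM with GFP, 152 ± 5.99 CPM with DUX4 and 75.5 ± 4.69 CPM with DUXC. Its DUXC value of log2 0.08 (adjusted p = 0.0662) did not pass although the groups did not overlap, and it passed without DUXC replicate 1, at 0.0313, or DUXC replicate 2, at 0.0245, and under the scalings and fits named for MCM5, with an adjusted p of 1.16e-05 to 0.602 over all alternatives.

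The make-up of the MCM2 to MCM7 reads therefore differed between the groups. MCM3 gave 4.94, 5.18 and 5.97% of these reads with GFP, 9.89, 10.6 and 10.2% with DUX4 and 22.9, 23.8 and 22.8% with DUXC. MCM5 gave 4.61% ± 0.485, 10.1% ± 0.211 and 3.16% ± 0.154. MCM6 gave 47.8% ± 1.96 with GFP, and 30.1% ± 0.80 with DUX4 and 31.1% ± 1.67 with DUXC, which overlapped each other. With groups of 3, an exact two-sided permutation test cannot give a p below 0.10, so no p is given for shares and ratios.

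**Figure D3:**
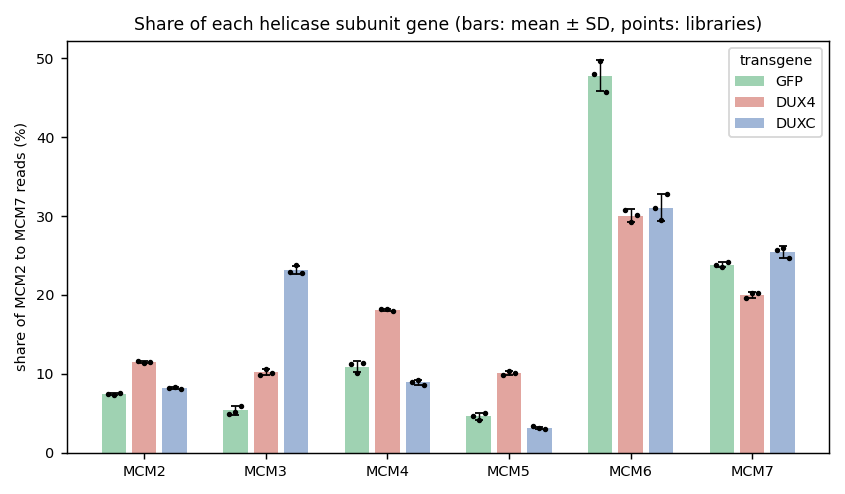
Share (%) of each helicase subunit gene in the summed reads of MCM2 to MCM7, by transgene (bars: mean, error bars: SD, points: the 3 libraries). MCM3 takes 23.2% with DUXC against 5.36% with GFP and 10.2% with DUX4, and MCM6 takes 47.8% with GFP and close to 30% with either transgene.

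Of the 8 genes of origin firing, DBF4 was the one that was higher with DUXC than with DUX4. DBF4, the regulatory subunit that activates the kinase CDC7, had 14.8, 16.0 and 13.5 CPM with GFP, 33.5, 33.2 and 33.1 CPM with DUX4 and 126, 130.2 and 129.8 CPM with DUXC. The groups were widely separated. It rose 2.25-fold with DUX4 (log2 1.17, SE 0.0488, adjusted p = 3.65e-26) and 8.71-fold with DUXC (log2 3.12, SE 0.0441, adjusted p = 3.32e-46), and the direct difference was log2 -1.95 (SE 0.0393, adjusted p = 1.09e-39). DBF4 lies on chromosome 9 from 92449385 to 92481959 and its span overlaps that of SLC25A40, which had 22.2 ± 0.529 CPM with GFP, 19.4 ± 1.02 CPM with DUX4 and 32.9 ± 1.25 CPM with DUXC (log2 0.56 with DUXC).

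CDC7 itself, the catalytic subunit, moved little. It had 7.76 ± 0.825 CPM with GFP, 10.7 ± 0.942 CPM with DUX4 and 8.61 ± 0.37 CPM with DUXC. It rose by log2 0.45 with DUX4 (adjusted p = 4.37e-06), and with DUXC the difference was 0.15 (95% interval -0.02 to 0.32, adjusted p = 0.101), which passed under the scalings and fits named for MCM5 and without GFP replicate 3, at 0.0198, and ranged from 0.00307 to 0.391 over all alternatives.

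The helicase activators rose strongly with DUX4. MCM10, which helps to start the assembled helicase, went from 5.43 ± 0.234 CPM to 32.7 ± 2.09 with DUX4 (log2 2.59) and 17.2 ± 0.106 with DUXC (log2 1.66). CDC45, part of the active helicase, went from 5.19 ± 0.72 to 26.2 ± 1.24 with DUX4 (log2 2.34) and 8.06 ± 0.43 with DUXC (log2 0.64). Both were higher with DUX4 in the direct test, by log2 0.92 and 1.70.

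GINS is a complex of 4 proteins that holds the active helicase together. With DUX4 its 4 genes rose by log2 1.24 to 2.40, GINS1 most, where 32.9% of all genes tested were higher. With DUXC 3 rose and 1 fell, where 40.2% of all genes tested were higher and 42.3% lower. GINS1 went from 4.56 ± 0.609 CPM with GFP to 24.0 ± 0.763 with DUX4, and was 5.83 ± 0.478 CPM with DUXC (log2 0.36, adjusted p = 0.000817). GINS3 rose by log2 0.52 with DUXC, from 2.91 ± 0.382 to 4.18 ± 0.221 CPM. GINS2 fell by 0.37 on the log2 scale, from 3.02 ± 0.603 to 2.34 ± 0.256 CPM (adjusted p = 0.0168). That call was lost without DUXC replicate 3, at 0.0900, and without GFP replicate 3, at 0.231. It was also lost under 3 other scalings or tools, at 0.0583 with DESeq2's size factors, 0.0863 with DESeq2 and 0.109 with library size alone, and the range over all alternatives was 0.00386 to 0.231. The span of GINS2 overlaps GSE1, which fell from 47.6 ± 2.73 to 21.4 ± 1.48 CPM with DUXC. GINS4 rose by log2 0.29 (adjusted p = 0.0170), and this call was lost without DUXC replicate 2, at 0.175, GFP replicate 1, at 0.0526, or GFP replicate 3, at 0.0878, in a range of 0.000914 to 0.175.

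The polymerase and primase genes all rose with both transgenes, with a median log2 of 1.77 with DUX4 and 0.58 with DUXC. Of all genes tested, 32.9% were higher with DUX4 and 40.2% with DUXC. POLA1, the catalytic subunit of the polymerase that starts each new strand, was the one that rose further with DUXC. It had 15.2, 13.5 and 14.1 CPM with GFP, 29.3, 29.4 and 27.8 CPM with DUX4 and 42.1, 41.3 and 43.6 CPM with DUXC. The groups did not overlap, and the direct difference was log2 -0.55 (SE 0.0472, adjusted p = 6.74e-15). Its accessory subunit POLA2 went the other way between the transgenes, with 12.8 ± 0.516 CPM with GFP, 31.0 ± 3.28 CPM with DUX4 and 16.0 ± 0.199 CPM with DUXC, a direct difference of log2 0.96.

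PRIM1, the primase subunit that lays down RNA primers, went from 5.04 ± 0.207 CPM to 17.3 ± 1.01 with DUX4 and 7.53 ± 0.249 with DUXC. POLE, the catalytic subunit of the leading strand polymerase, went from 5.41 ± 0.46 to 30.05 ± 1.08 CPM with DUX4 (log2 2.47) and 9.11 ± 0.792 CPM with DUXC (log2 0.75). POLD1, that of the lagging strand polymerase, went from 5.53 ± 0.329 to 19.0 ± 1.84 and to 7.57 ± 0.154 CPM (log2 1.78 and 0.45).

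PCNA is the ring that tethers the polymerases to DNA, and replication factor C loads it. PCNA had 34.8, 34.8 and 32.3 CPM with GFP, 88.8, 87.2 and 81.2 CPM with DUX4 and 44.1, 46.3 and 47.2 CPM with DUXC. It rose 2.52-fold with DUX4 and 1.35-fold with DUXC, with no overlap between any groups. RFC3, RFC4 and RFC5 rose with both, by log2 1.00 to 1.23 with DUX4 and 0.36 to 0.71 with DUXC. RFC4 came closest to being level between the transgenes, at 23.9 ± 0.541 CPM with DUX4 and 19.6 ± 0.449 with DUXC (direct log2 0.29, 95% interval 0.18 to 0.40).

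RFC2 broke from its partners. It had 39.0, 37.6 and 40.7 CPM with GFP, 63.1, 68.3 and 63.9 CPM with DUX4 and 25.7, 26.2 and 28.1 CPM with DUXC. It rose by log2 0.74 with DUX4 and fell by 0.55 on the log2 scale with DUXC (SE 0.0466, adjusted p = 4.88e-15), and its share of the reads of RFC2 to RFC5 was 51.1% ± 0.863 with GFP, 45.2% ± 0.632 with DUX4 and 33.1% ± 0.831 with DUXC.

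Of the lagging strand and fork genes, CLSPN behaved like CDC6 and ORC1 in being higher with DUXC than with DUX4. CLSPN encodes claspin, which carries the checkpoint signal from stalled forks. It had 6.12, 6.42 and 7.21 CPM with GFP, 33.0, 31.9 and 29.9 CPM with DUX4 and 35.8, 38.4 and 37.5 CPM with DUXC. It rose 4.81-fold and 5.66-fold, with a small direct difference of log2 -0.24 (95% interval -0.34 to -0.14, adjusted p = 2.98e-05) and no overlap.

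FEN1, the nuclease that trims the flaps between Okazaki fragments, went from 5.96 ± 0.576 CPM to 22.4 ± 0.837 with DUX4 and 8.72 ± 1.02 with DUXC. RPA2, a subunit of the protein that coats single-stranded DNA, went from 13.1 ± 0.746 to 31.9 ± 1.67 and 20.6 ± 0.969 CPM. LIG1, the ligase that seals the fragments, went from 12.4 ± 0.813 to 32.3 ± 1.63 CPM with DUX4 and was 13.7 ± 0.49 CPM with DUXC. That last difference, log2 0.14 with overlapping groups and an adjusted p of 0.0452, was lost without DUXC replicate 2 or 3 or GFP replicate 1 or 2, at 0.105 to 0.200, with upper quartile scaling, at 0.0675, with no filter, at 0.203, and with limma-voom, at 0.0558, in a range of 0.000245 to 0.203.

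Nucleotide supply was the role in which the transgenes differed most in level. The 4 genes summed to 223, 218 and 225 CPM with GFP, to 451, 460.1 and 429.8 CPM with DUX4 and to 168, 166 and 159.7 CPM with DUXC. The DUX4 sum was 2.01 times that with GFP and the DUXC sum 0.741 times.

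RRM2, the small subunit of ribonucleotide reductase and the one whose level follows the cell cycle, had 19.9, 17.9 and 20.1 CPM with GFP, 142, 149 and 128 CPM with DUX4 and 12.7, 13.4 and 12.2 CPM with DUXC. The DUX4 libraries were far above the others and the DUXC libraries below all GFP libraries. It rose 7.25-fold with DUX4 (log2 2.86, SE 0.0504, adjusted p = 1.95e-30) and fell by 0.59 on the log2 scale with DUXC (SE 0.0645, adjusted p = 6.32e-10). The direct difference, log2 3.45 or 10.9-fold (adjusted p = 1.69e-32), was the largest upward one of the 44 genes and ranked 42 among all genes tested.

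RRM1, the large subunit, had 67.2, 64.0 and 67.1 CPM with GFP, 131, 129 and 126 CPM with DUX4 and 67.6, 66.9 and 65.2 CPM with DUXC. The ranges of the GFP and DUXC libraries overlapped (log2 0.01, 95% interval -0.06 to 0.08, adjusted p = 0.808), while DUX4 gave a 1.94-fold rise. RRM1 was called as higher with DUXC with an adjusted p of 0.0216 under DESeq2's size factors, 0.0319 under DESeq2 and 0.00069 under library size alone, in a range up to 0.977.

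TYMS, thymidylate synthase, had 130.2, 129.9 and 132 CPM with GFP, 146, 146 and 141 CPM with DUX4 and 77.7, 73.8 and 72.1 CPM with DUXC. It rose by only log2 0.14 with DUX4 (SE 0.0326, adjusted p = 0.000133), the smallest rise of the 44, and fell by 0.81 with DUXC (SE 0.0339, adjusted p = 1.61e-26), the largest fall. TK1, thymidine kinase, which salvages thymidine, rose with both, from 6.17 ± 0.264 CPM to 34.4 ± 1.58 with DUX4 (log2 2.48) and 10.8 ± 0.991 with DUXC (log2 0.80). The gene for making thymidylate and the gene for salvaging thymidine thus moved in opposite directions with DUXC.

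Chromatin assembly factor 1 places new histones behind the fork. Its large subunit gene CHAF1A went from 7.69 ± 0.157 CPM to 26.2 ± 1.18 with DUX4 (log2 1.77) and 13.8 ± 0.783 with DUXC (log2 0.84). CHAF1B went from 5.97 ± 0.142 to 17.2 ± 0.388 CPM with DUX4 (log2 1.53) and was 6.70 ± 0.188 CPM with DUXC, above GFP in every library but not called (log2 0.17, adjusted p = 0.0610, from 0.00151 to 0.224 over the alternatives, called under the scalings, filter and fits named for MCM5). SLBP, which binds the histone mRNA stem-loop, had 62.0, 57.7 and 61.1 CPM with GFP, 68.4, 69.6 and 66.9 CPM with DUX4 and 37.9, 38.4 and 39.9 CPM with DUXC. SLBP rose slightly with DUX4 (log2 0.18, SE 0.0374, adjusted p = 4.20e-05) and fell by 0.64 on the log2 scale with DUXC (adjusted p = 7.75e-20).

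The regulators of the step into S phase also divided. E2F1, an activator of many genes of the set, had 2.96, 3.34 and 3.36 CPM with GFP, 19.5, 21.7 and 21.0 CPM with DUX4 and 6.69, 7.64 and 7.34 CPM with DUXC. It rose 6.45-fold with DUX4 and 2.25-fold with DUXC, with a direct difference of log2 1.52 (adjusted p = 2.11e-24). E2F2, a close relative, was scarce, with 0.571 ± 0.14 CPM with GFP, 1.95 ± 0.337 with DUX4 (log2 1.77) and 0.707 ± 0.22 with DUXC. The DUXC value of E2F2 overlapped GFP (log2 0.30, 95% interval -0.25 to 0.86, adjusted p = 0.306), an interval wide enough to hold a difference as large as that of several genes that were called.

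The 2 cyclin E genes, whose products activate CDK2 at the start of S phase, rose in different proportion with DUX4 and in like proportion with DUXC. CCNE1 had 5.28, 4.52 and 5.08 CPM with GFP, 8.90, 8.03 and 7.43 CPM with DUX4 and 11.8, 10.9 and 10.6 CPM with DUXC. CCNE2 had 1.76, 1.51 and 1.64 CPM, 7.74, 7.39 and 7.51 CPM, and 3.72, 3.38 and 3.59 CPM in the same order. CCNE1 was higher with DUXC (direct log2 -0.45, adjusted p = 2.12e-06) and CCNE2 higher with DUX4 (direct log2 1.08, adjusted p = 6.08e-14). CDC25A, the phosphatase that removes the inhibitory phosphate from CDK2, rose from 11.9 ± 0.795 to 17.0 ± 0.386 CPM with DUX4 (log2 0.51) and fell by 0.25 on the log2 scale with DUXC, where it was 10.1, 10.6 and 9.38 CPM (adjusted p = 0.00130). This fall was not called with library size alone (adjusted p = 0.0939, the highest of a range from 0.000107).

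Ratios between genes whose products work together need no scaling between libraries, since both counts come from one library, and most but not all of 10 such pairs separated the groups. The pairs were chosen after the values had been seen, and only differences of a ratio between groups carry meaning, since the gene lengths cancel there. The ratio of DBF4 to CDC7 counts was 1.95, 2.27 and 1.56 with GFP, 3.05, 3.46 and 2.91 with DUX4 and 14.3, 14.7 and 15.9 with DUXC. That of CDC6 to CDT1 was 0.897, 0.657 and 2.20 with GFP, overlapped with DUX4 at 1.54, 0.899 and 1.18, and was 22.4, 24.0 and 22.8 with DUXC. In both pairs the DUXC libraries formed a group far above the rest.

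ORC1 to ORC6 rose in steps, from 1.03 ± 0.0709 with GFP to 3.45 ± 0.0973 with DUX4 and 8.01 ± 0.393 with DUXC. MCM3 to MCM5 was 1.17 ± 0.0952 with GFP, somewhat lower with DUX4 (1.01 ± 0.0145, no overlap), and reached 7.33 ± 0.423 with DUXC. POLA1 to PRIM1, 2 genes of one enzyme complex, was 2.83 ± 0.105, 1.68 ± 0.139 and 5.62 ± 0.0847. In these 3 pairs, too, DUXC gave the highest ratio, and in MCM3 to MCM5 and POLA1 to PRIM1 DUX4 gave the lowest.

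The ratio of RRM2 to RRM1 ran the other way, with 0.296, 0.280 and 0.299 for GFP, 1.09, 1.16 and 1.02 for DUX4 and 0.188, 0.201 and 0.186 for DUXC. CCNE1 to CCNE2 was 3.03 ± 0.0596 with GFP and 3.11 ± 0.151 with DUXC, which overlapped, and 1.08 ± 0.0804 with DUX4. With DUXC both cyclin genes had risen in like proportion. E2F1 to E2F2 ranged from 4.65 to 8.13 with GFP, from 9.28 to 12.1 with DUX4 and from 7.62 to 16.0 with DUXC, so that the DUXC libraries overlapped both other groups. CHAF1A to CHAF1B was 1.29 ± 0.0469, 1.53 ± 0.0951 and 2.06 ± 0.11, and POLA1 to POLA2 was 1.12 ± 0.104, 0.936 ± 0.086 and 2.65 ± 0.0909, both highest with DUXC and with no overlap between groups.

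**Figure D4:**
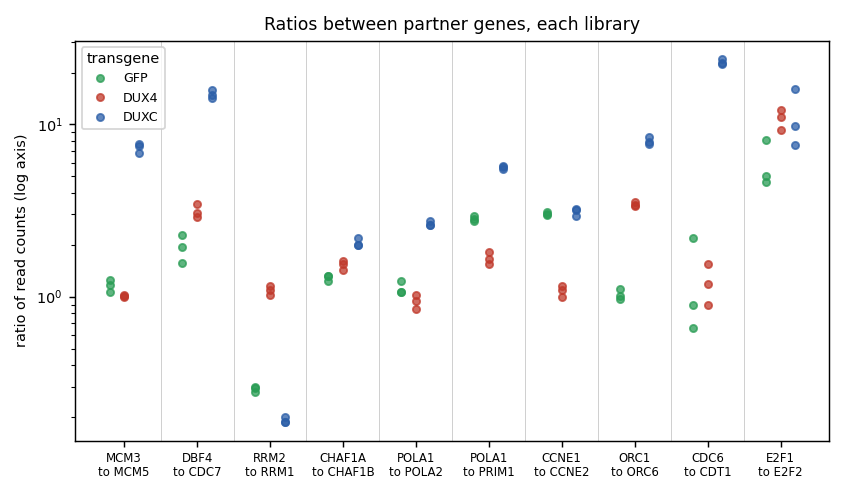
Ratio of read counts (log axis) between 10 pairs of partner genes in each of the 9 libraries. With DUXC the ratios of MCM3 to MCM5, DBF4 to CDC7, ORC1 to ORC6 and CDC6 to CDT1 lie above those of both other groups, while RRM2 to RRM1 is highest and CCNE1 to CCNE2 lowest with DUX4.

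In the genome the 44 genes are spread over 16 chromosomes of Sscrofa11.1, and the 2 genes MCM5 and CDC25A lie on unplaced sequence. For 13 of the 44, RefSeq places another gene over part of the span, so reads of overlapping exons could count for either if the counting did not use strand, which was not given in the sources used here. Beside the neighbours of DBF4 and GINS2 given above, EIF4A2, which overlaps RFC4, and AGO4, which overlaps CLSPN, were lower with both transgenes by log2 -0.10 to -0.32 while RFC4 and CLSPN rose. WSB2, over RFC5, rose with DUX4 as RFC5 did (log2 0.18) and fell by 0.61 on the log2 scale with DUXC, where RFC5 rose. AP4M1, over MCM7, fell by 0.33 with DUX4 and was not called with DUXC (log2 -0.09, adjusted p = 0.257). INTS8, over CCNE2, had a log2 value of -0.07 with DUX4 and -0.24 with DUXC. RRM2 (chromosome 3, 126357198 to 126367145), TYMS (chromosome 6, 105642730 to 105660279) and MCM3 (chromosome 7, 46084648 to 46104425) have no gene placed over them.

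A list of 40 further replication genes, of which 39 were analysed, had smaller medians than the 44. Both lists were chosen with earlier results of these data known, and the difference between them was not tested. With DUX4, 33 rose, 3 fell and 3 were not called, with a median log2 of 0.60, where 32.9% of all genes tested were higher and 31.9% lower. With DUXC, 20 rose, 10 fell and 9 were not called, with a median of 0.14, where 40.2% were higher and 42.3% lower. The 3 that fell with DUX4 were MCMBP, which binds the helicase off chromatin (log2 -0.25), POLD4, the smallest subunit of the lagging strand polymerase (-0.91), and RRM2B, the reductase subunit induced by p53 (-0.64), and the 3 not called were ORC4, ORC5 and RNASEH2A. UHRF1, which brings DNA methylation to the new strand, had the clearest split: 5.82 ± 0.448 CPM with GFP, 43.7 ± 2.37 CPM with DUX4 and 4.82 ± 0.123 CPM with DUXC (direct log2 3.18).

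The other origin recognition genes were not alike with DUXC. ORC2 had 30.4 ± 0.501 CPM with GFP, 45.8 ± 1.37 CPM with DUX4 and 185 ± 2.17 CPM with DUXC (log2 2.61 with DUXC, adjusted p = 2.04e-46). ORC4 had 54.8 ± 1.40, 56.5 ± 1.51 and 149 ± 6.13 CPM, with log2 0.04 for DUX4 (adjusted p = 0.317) and 1.45 for DUXC. ORC3 went the other way, with 38.6 ± 1.39, 47.4 ± 0.275 and 26.1 ± 1.06 CPM, and fell by 0.57 on the log2 scale with DUXC (adjusted p = 1.08e-15). ORC5 was not called with either transgene, at log2 0.00 and 0.02 (adjusted p = 0.982 and 0.688). In the direct test ORC2, ORC4, ATAD5, MCM8 and RNASEH2A were the 5 listed genes higher with DUXC, and 27 were higher with DUX4. Of all genes tested, 41.6% were higher with DUXC and 40.8% with DUX4. The calls of MCM8 (adjusted p = 0.0175) and RNASEH2A (0.0178) were lost with no filter and without DUXC replicate 1, at 0.0555 to 0.0989, and also without DUX4 replicate 3 for MCM8, at 0.193, and without DUX4 replicate 1 for RNASEH2A, at 0.0801.

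Among other regulators of the step into S phase, E2F genes included, some differed between the transgenes and some moved the same way with both, and a gene could do both. Of 28 regulators analysed, 16 rose and 6 fell with DUX4, where 32.9% of all genes tested were higher and 31.9% lower, and 14 rose and 11 fell with DUXC, where 40.2% were higher and 42.3% lower. The DUXC counts are near the shares over all genes and are no result about the list. CCND1, cyclin D1, which opens the way to S phase by activating CDK4 and CDK6, had 341 ± 8.01 CPM with GFP, 656 ± 11.2 CPM with DUX4 and 143 ± 5.63 CPM with DUXC, a direct difference of log2 2.20. E2F7, a repressor of E2F target genes, had 2.04 ± 0.271 CPM with GFP, 14.6 ± 1.40 CPM with DUX4 and 113 ± 6.05 CPM with DUXC, so it rose by log2 2.84 and 5.79. CDKN1B, an inhibitor of CDK2, fell by 0.58 on the log2 scale with DUX4 and rose by log2 0.76 with DUXC.

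The same direction with both transgenes was seen in CDKN1A, the CDK inhibitor p21, which fell by 1.17 and 1.26 on the log2 scale from 1177 ± 21.5 CPM with GFP, and in CCND3, a D-type cyclin, which fell by 1.11 and 0.96 from 69.1 ± 2.32 CPM. CDKN2C, an inhibitor of CDK4 and CDK6, rose by log2 1.32 and 1.57, and E2F8, a repressor related to E2F7, by 3.02 and 1.59. E2F7 and E2F8 thus rose with both transgenes and also differed between DUX4 and DUXC, by log2 -2.95 and 1.43. CDK2, E2F3 and TFDP2 were the 3 regulators not called with DUXC, at log2 -0.04, -0.09 and 0.03 (adjusted p = 0.654, 0.0585 and 0.655). E2F3, E2F5, E2F6 and CDKN2D were the 4 not called between DUX4 and DUXC, at log2 0.06, -0.23, -0.03 and -0.04 (adjusted p = 0.227, 0.120, 0.532 and 0.650). Of these non-calls, E2F3 and TFDP2 with DUXC and E2F5 and E2F6 between the transgenes were called under at least 1 alternative.

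Genes of G2 and mitosis, the stages after S phase, moved further with DUX4 than the replication genes. All 30 analysed rose with DUX4, where 32.9% of all genes tested were higher. Their median log2 was 2.79, against 1.65 for the 44 genes. With DUXC 29 rose and MYBL2 fell by 0.45 on the log2 scale, where 40.2% of all genes tested were higher and 42.3% lower. The median was 0.78, against 0.52. Between the transgenes 27 were higher with DUX4, where 40.8% of all genes tested were. CDC20 and CDC25C were higher with DUXC, where 41.6% of all genes tested were. TOP2A, at 220.4 ± 12.2 and 221 ± 10.3 CPM, was not called (log2 -0.01, adjusted p = 0.894, and 0.00727 with library size alone). The difference between the 2 lists was not tested.

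**Figure D5:**
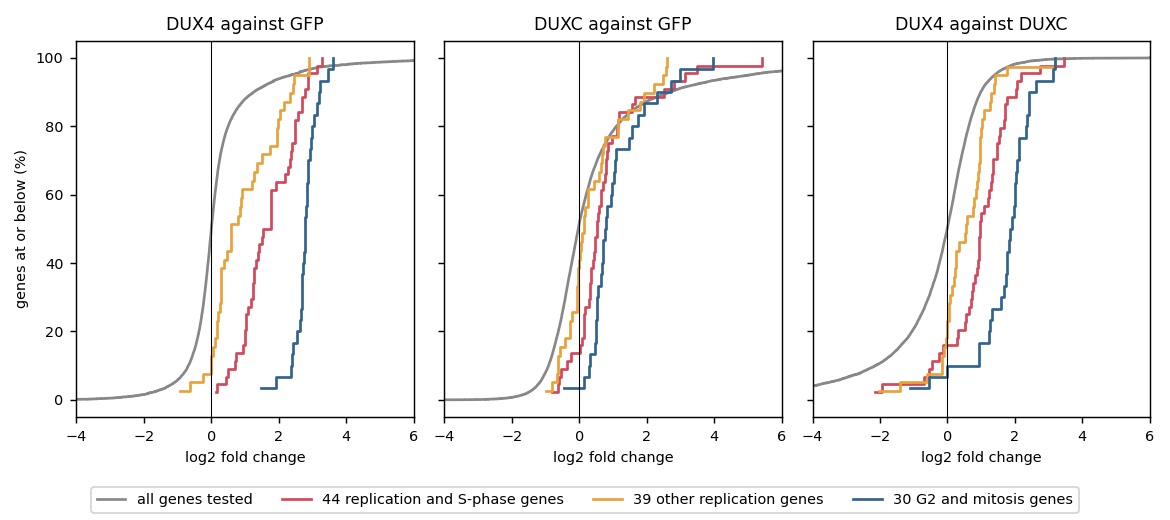
Share (%) of genes at or below each log2 fold change, in 3 comparisons, for all genes tested, the 44 replication and S-phase genes, 39 other replication genes and 30 genes of G2 and mitosis. With DUX4 the medians are 0.00, 1.65, 0.60 and 2.79, and with DUXC the member curve runs close to that of all genes in its upper part, with a median of 0.52.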

How the data were processed

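Messenger RNA libraries were made with the TruSeq stranded mRNA kit, per the labels' protocols. The authors deposited whole-number read counts per gene for 9 libraries. The submitters' processing notes name CASAVA 1.9, Trim Galore, featureCounts and the Sscrofa11.1 genome. The strand setting, the annotation release and other versions were not given in the sources used here.

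Groups came from the labels. From the counts, edgeR 4.0.16 in R 4.3.3 was fitted over all 9 libraries by group, with filterByExpr (15956 of 27339 genes kept), TMM normalisation and a robust quasi-likelihood fit. Each of the 3 contrasts was tested two-sided with Benjamini-Hochberg adjustment over all genes tested at 0.05. CPM values are scaled by TMM. The 44 members, the roles and all other lists were chosen with earlier results of these data known. All members are named. Of the other replication genes, regulators and G2 and mitosis genes, some named were not called, or called against most of their list, where these were 5 or fewer. Others were among the 4 of their list with the smallest p in a contrast. Not all genes picked in this way are named, and ORC3 was named outside this rule.

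Depth was 36580573 to 44420895 counts, and the lowest count of a member in any library was 15. Libraries of a group differed by more than sampling noise (chi-square over genes between 2.62 and 17.9 for each degree of freedom). There were 9 alternative settings, including DESeq2 1.42.0 and limma 3.58.1 (voom), and 9 fits that left out 1 library each. Positions came from RefSeq's Sscrofa11.1 table, which matched 26838 genes of the table by symbol. The code was tested on simulated data. TIMELESS and CDKN2A, both listed, were not analysed here, and no sequence was used.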

Additional observations from a re-analysis of the deposited data

How the results depend on the processing

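All 44 genes stayed higher with DUX4 than with GFP under every alternative, and no member changed direction past the threshold in any comparison. With DUXC against GFP, 30 to 37 genes were higher and 4 to 6 lower, and in the direct comparison 37 were higher and 6 to 7 lower. The counts over all 15956 genes tested moved with the setting too. With DUXC against GFP, 6422 were higher and 6743 lower in the main fit, and 7267 and 5726 with library size alone. In the direct comparison these counts were 6515 and 6635, and 5753 and 7376. Shifts in the member counts were not separated from these. The median log2 fold change with DUX4 was 1.56 to 1.65 when 1 library was left out. With DUXC it was 0.59 with DESeq2's size factors, 0.64 with library size alone, 0.50 with upper quartile scaling, 0.47 with no filter, 0.58 with a filter of 1 CPM, 0.60 with DESeq2, 0.52 with limma-voom, 0.57 with only both groups compared, and 0.44 to 0.55 when 1 library was left out. Between DUX4 and DUXC it was 0.90 with DESeq2's size factors, 0.86 with library size alone, 1.00 with no filter, 0.90 with a filter of 1 CPM and 0.90 with DESeq2. Library size alone shifted the median of all genes by 0.12 for DUXC against GFP and by -0.10 for DUX4 against DUXC. The direct difference in CDKN1A turned from log2 0.09 to -0.0076 with library size alone. The causes were not tested. Same-numbered libraries of different groups deviated together with correlations of -0.0258 to 0.0318, and differently numbered ones with -0.0285 to 0.0302. No pairing by number was visible over all genes, but whether same-numbered libraries shared a culture or a day was not given. With the replicate block the medians were 1.64, 0.52 and 0.96, with 32 higher and 6 lower with DUXC. Ratios between genes use no scaling, and their values in each library are given. Depth limits E2F2, CDT1 and CDC6, which had the fewest counts, 15 to 23 in their lowest library.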
